A study of Zea mays with 12 samples.

Results

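The genes described here were 177 of 21472 tested maize genes that stood much higher in leaves of zmcryq than in leaves of B73, after blue light and in darkness alike, while the light itself moved them little in either genotype. B73 is the inbred line used as wild type. The mutant stock zmcryq takes its name from the cryptochromes. The 4 groups, each with 3 libraries of leaf RNA, were zmcryq given blue light for 1 h, zmcryq left in darkness, B73 given blue light for 1 h, and B73 left in darkness. In all groups the seedlings were 7 days old, had grown in long days of white light, and had then spent 48 h in darkness. The labels give neither the alleles carried by zmcryq nor the line in which the stock was made, so loss of cryptochromes and any other difference between the stocks cannot be told apart. Nor do they say that replicate libraries represent different plants, so the spread between replicates may be technical.

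Members were chosen by their measured values. Each library was divided by its median ratio to the gene-wise geometric mean, and groups were compared by their mean log2(scaled FPKM + 1). FPKM (fragments scaled by transcript length and mapped total) is the unit the deposited values were read in, since no label states it. A member had a difference, zmcryq minus B73, of 2 or more on this log2 scale in blue light and in the dark. Its difference between blue light and dark, blue minus dark, lay within 0.75 of 0 in both genotypes. Of the 21472 tested genes, 12132 met the condition on light, and 294 met the condition on genotype. The 177 members, which met both, were 0.824% of the tested genes and 60.2% of the 294. The same rule turned round gave 168 light-steady genes lower in zmcryq.

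Cryptochromes are blue-light receptors with a flavin chromophore. In plants they change gene expression within minutes to hours of illumination, largely by acting on transcription factors and on the ubiquitin ligase complex that degrades light-signalling factors in the dark. They are known for roles in de-etiolation of seedlings, in the growth of stems and leaves and in pigment formation. The gene IDs of the table are not paired with names in the file, and 0 of the 44303 IDs were found in the RefSeq gene table, so the members are given by ID only. No role, sequence or genome position is given for them here.

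Per library, the deposited values summed to 588717 to 814802 FPKM, and the scaling factors spanned 0.507 (zmcryq dark replicate 1) up to 1.64 (zmcryq blue replicate 3). Fragment counts are not given. The commonest ratio of low values between libraries, if it is that of 1 fragment, put the mapped totals at 0.812 to 1.52 times that of B73 dark replicate 1 in the zmcryq libraries and at 0.871 to 1.62 times in the B73 libraries.

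The members were genes of middling level in zmcryq and of very low level in B73. Their mean level over the 6 zmcryq libraries ran from 3.11 to 507 scaled FPKM with a median of 10.9, and over the 6 B73 libraries from 0 to 114 with a median of 0.0377. Over all tested genes the medians were 7.79 in zmcryq and 8.17 in B73. In zmcryq, 101 of the 177 members had a mean level of 10 or more, 44 of 20 or more, 14 of 50 or more and 5 of 100 or more. Together the members held 0.337% to 0.686% of the summed FPKM of a zmcryq library, against 0.023% to 0.0545% of that of a B73 library. In bulk leaf RNA, more cells of a type and more RNA per cell cannot be told apart.

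**Figure D1:**
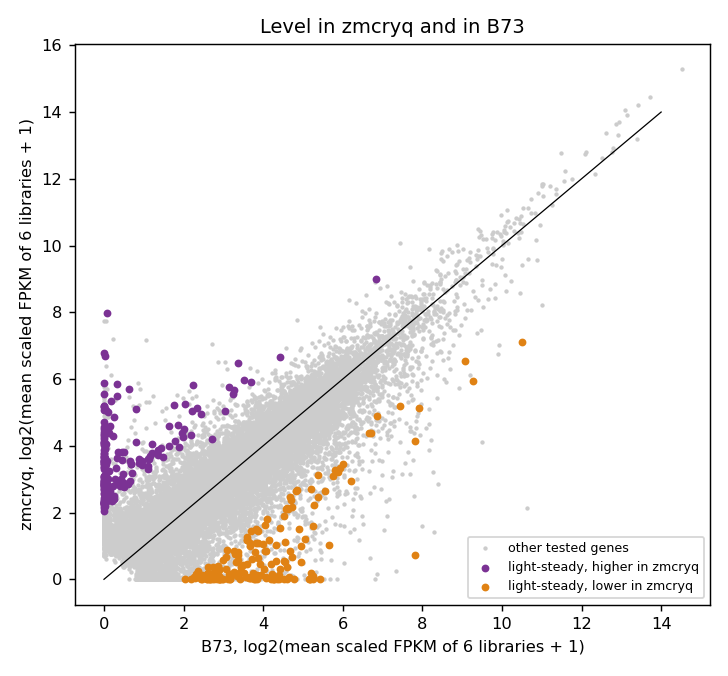
Mean scaled FPKM over 6 libraries, as log2 of the mean plus 1, in zmcryq (vertical axis) and in B73 (horizontal axis), 1 point per tested gene, with the line of equal level. The 177 members (purple) lie above the line, most of them at the left edge where B73 is near 0; the 168 genes of the reversed rule (orange) lie below it.

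The members' median level differed little between libraries of a genotype once scaled. The median member stood at 10.7, 11.2 and 10.7 scaled FPKM in the 3 libraries of zmcryq in blue light and at 11.3, 10.9 and 11.0 in those of zmcryq in the dark, against 0.0208, 0 and 0.0202 in B73 in blue light and 0, 0 and 0 in B73 in the dark. The rule itself fixed the gap between genotypes and bounded the gap between lights, so these medians are a description. For 173 members above 0 in all 6 zmcryq libraries, the highest of the 6 scaled values was 1.75 times the lowest at the median, and it was under 2 times for 117 of them. Between replicates, the median SD of a member on the log2 scale was 0.164 in zmcryq blue and 0.178 in zmcryq dark, against 0.0524 in B73 blue and 0.0428 in B73 dark. The same medians over all tested genes were 0.116, 0.125, 0.153 and 0.201. Only 102 members in B73 blue and 105 in B73 dark had replicate values that differed at all. Values at or near 0 can vary little on this scale, so the low SDs in B73 do not measure closer replication.

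**Figure D2:**
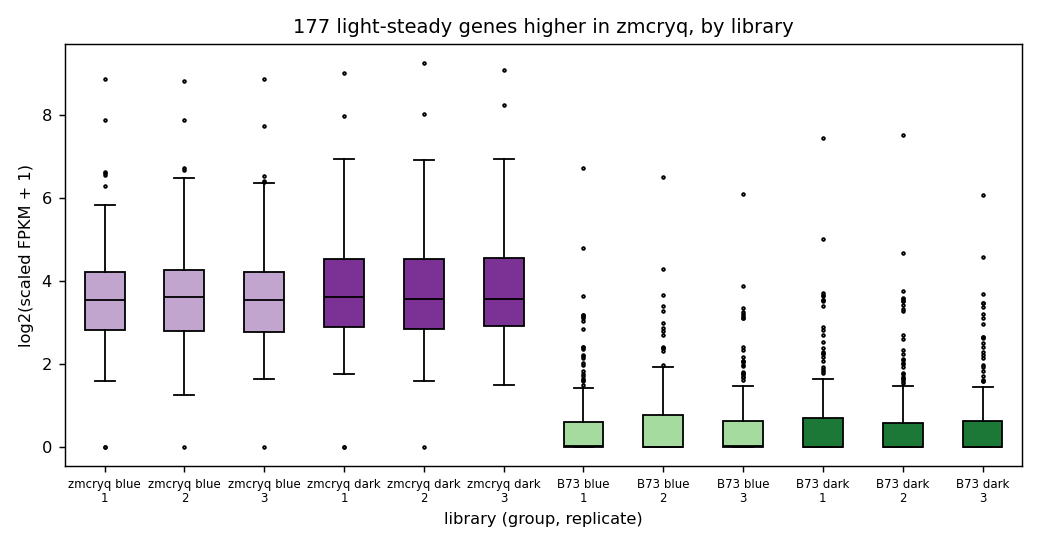
Levels of the 177 members in each of the 12 libraries, as log2(scaled FPKM + 1). Boxes span the quartiles with the median as a line, whiskers reach the last value within 1.5 box heights, and dots are members beyond them. The 6 zmcryq boxes sit at about the same height and the 6 B73 boxes at or near 0.

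The genotype differences were as follows, as a description of what the rule selected. After blue light the log2 difference, zmcryq minus B73, ran from 2.00 to 7.72 with a median of 2.89. In the dark it ran from 2.01 to 8.06 with a median of 2.86. Over all tested genes these medians were 0.02 and 0.03. Both differences reached 3 in 69 members, 4 in 29, 5 in 8 and 6 in 3. For 171 of the 177 members all 6 scaled zmcryq values lay above all 6 scaled B73 values, which held for 10.3% of all tested genes. The limma fit over all tested genes called 173 members higher in zmcryq after blue light, where 26.9% of tested genes were so called, and 173 in the dark, where 25.1% were. Because the rule used these contrasts, nothing is read from the members' counts. The background shares depend on scaling. Without it, the median difference of all tested genes was 0.17 in blue light and -0.38 in the dark. Of the called genes, 51.2% were then higher in zmcryq in blue light and 23.8% in the dark. With median-ratio scaling these shares were 48.9% and 50.4%, and with upper-quartile scaling 57.8% and 50.8%. All 177 members were higher in zmcryq in both lights also without scaling, where the smallest difference was 1.5. The rule required differences of 2 or more, so a change of scaling that moves the medians this little could hardly reverse a member.

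The member with the highest level, Zm00001eb139890, was also the one with the highest level in B73. It was deposited at 589, 389 and 765 FPKM in zmcryq in blue light and 262, 654 and 393 in zmcryq in the dark, against 151, 51.4 and 101 in B73 in blue light and 199, 190 and 65.9 in B73 in the dark. Unscaled, no zmcryq library was below a B73 library. After scaling the means were 460 ± 9.84 in zmcryq blue against 87.7 ± 18.6 in B73 blue (SD, n = 3 each). In the dark they were 555 ± 47.1 in zmcryq against 140 ± 63.9 in B73 (SD, n = 3 each). Over the 6 libraries of each genotype Zm00001eb139890 was 4.46 times as high in zmcryq. Its log2 differences were 2.40 ± 0.32 (limma SE) in blue light and 2.11 ± 0.32 in the dark. The smaller one was 1.64 without B73 dark replicate 3 and 1.58 without scaling, so the gene then fell below the required 2.

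The next 3 members by level in zmcryq were listed at 0 or close to it in B73, and they were also the 3 with the largest differences. Zm00001eb324290 was deposited at 298, 204 and 349 FPKM in zmcryq in blue light and 127, 281 and 220 in zmcryq in the dark, against 0.25, 0 and 0.12 in B73 in blue light and 0, 0 and 0.05 in B73 in the dark. Zm00001eb286690 was deposited at 123, 90.3 and 139 FPKM in zmcryq in blue light and 62.4, 128 and 88.8 in zmcryq in the dark, while each of the 6 B73 libraries listed it at 0. For both genes every zmcryq library was well above every B73 library.

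Zm00001eb224780 was deposited at 118, 88.4 and 136 FPKM in zmcryq in blue light and 54.1, 124 and 79.8 in zmcryq in the dark, against 0, 0 and 0.1 in B73 in blue light and 0 in all 3 libraries of B73 in the dark. In all 3 genes zmcryq dark replicate 1 was the lowest and zmcryq blue replicate 3 the highest zmcryq library, as they were in the scaling factors. After scaling, Zm00001eb286690 stood at 95.3 ± 9.97 in zmcryq blue and 121 ± 2.08 in zmcryq dark (SD, n = 3 each). The smaller one of the log2 differences in blue light and dark was 7.72 for Zm00001eb324290, 6.58 for Zm00001eb286690 and 6.51 for Zm00001eb224780, sizes that depend on the pseudocount of 1 because B73 is at or near 0. With a pseudocount of 5 in its place they were 5.51, 4.32 and 4.28.

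**Figure D3:**
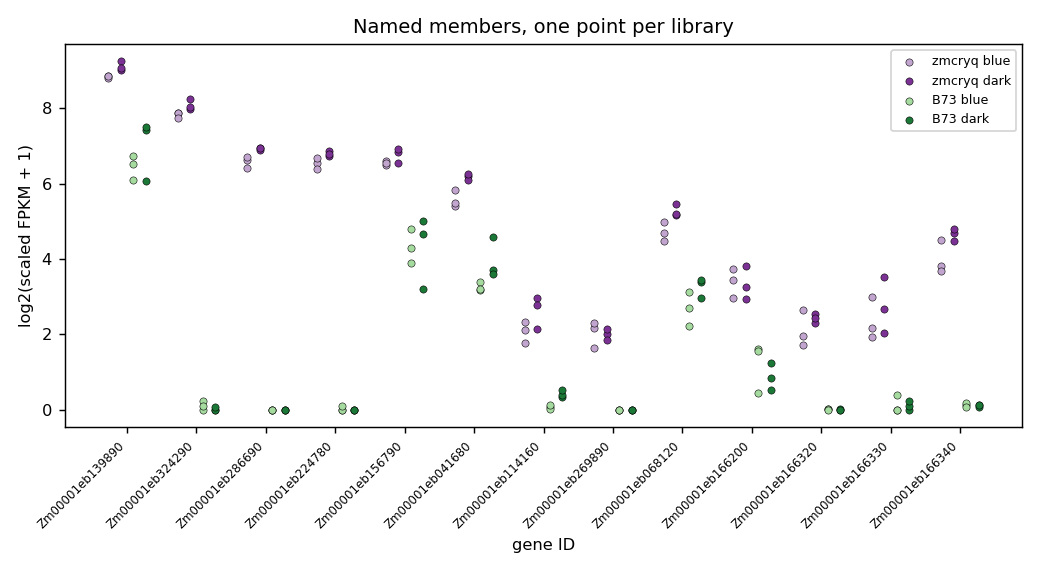
Levels of the 13 named members as log2(scaled FPKM + 1), 1 point per library, with the groups side by side for each gene in the order zmcryq blue, zmcryq dark, B73 blue and B73 dark. In each gene the 6 zmcryq points lie above the 6 B73 points; for Zm00001eb286690 and Zm00001eb269890 all 6 B73 points are at 0.

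Members listed at 0 in wild type made up 36.7% of the set. All 6 B73 libraries were at 0 for 65 members, at least 1 but not all for 47, and none for another 65. In 129 members (72.9%) no B73 library reached 1 FPKM, and in 22 members all 6 did. The 65 members at 0 in B73 had mean levels in zmcryq of 3.11 to 108 scaled FPKM, with a median of 8.93. Of all tested genes, 217 (1.01%) were at 0 in all 6 B73 libraries, and the members were 30% of these. Another 26 of the 217 met the condition on genotype but not that on light, and 126 had a difference below 2. With B73 at 0, a gene needs a level of about 3 scaled FPKM in zmcryq to reach the required difference. In the other direction, 172 tested genes (0.801%) were at 0 in all 6 zmcryq libraries, and 28 of the 168 light-steady genes lower in zmcryq (16.7%) were among them. The share of members at 0 was 48.6% to 53.7% in the single B73 libraries and 0% to 1.13% in the single zmcryq libraries, against 2.22% to 3.30% of all tested genes in any library. The rule used these values, and a gene at 0 in all B73 libraries could be tested only through its zmcryq values. The contrast with all tested genes is therefore a description of what was selected.

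A smaller number of members were expressed in both genotypes. The mean B73 level was 1 scaled FPKM or more in 36 members and 5 or more in 10. In the 36, the mean in zmcryq was 3.13 to 15.3 times that in B73, with a median of 7.56. After Zm00001eb139890, the highest B73 levels belonged to Zm00001eb156790 and Zm00001eb041680. Zm00001eb156790 was deposited at 121, 77 and 151 FPKM in zmcryq in blue light and 46.9, 121 and 87.8 in zmcryq in the dark, against 38.5, 10.6 and 20.4 in B73 in blue light and 35.9, 25.6 and 8.18 in B73 in the dark. Its scaled level was 4.90 times as high in zmcryq. Its SD between the B73 dark libraries, 11.8 around a mean of 21.3, was wide, with replicate 3 lowest. Zm00001eb041680 was deposited at 52.3, 48.9 and 71.9 FPKM in zmcryq in blue light and 36.6, 72.1 and 54.8 in zmcryq in the dark, against 11.6, 5.39 and 12.2 in B73 in blue light and 14.1, 11.7 and 22.7 in B73 in the dark. Here replicate 3 was the highest of the B73 dark libraries, and the scaled level was 4.95 times as high in zmcryq. In neither gene did the genotypes overlap.

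Not all members were even across the zmcryq libraries. In 4 members at least 1 zmcryq library was listed at 0, and in 6 the scaled values of the genotypes overlapped. These genes were named after their values were seen. Zm00001eb353370 was listed at 0, 22.33 and 12.85 FPKM in zmcryq in blue light and at 0, 26.38 and 8.86 in zmcryq in the dark, and at 0 in all 6 B73 libraries. Zm00001eb382210 was listed at 17.63, 0 and 25.69 FPKM in zmcryq in blue light and at 8.56, 0 and 6.41 in zmcryq in the dark, again with 0 in all B73 libraries. In these genes a replicate number was at 0 in both lights. Zm00001eb097410 was listed at 26.57, 10.32 and 0 FPKM in zmcryq in blue light and 0, 13.15 and 13.68 in zmcryq in the dark, and Zm00001eb116840 at 0, 7.29 and 13.78 and at 3.13, 4.29 and 3.84; both were at 0 in all B73 libraries.

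The other members whose genotypes overlapped were expressed in some B73 libraries. Zm00001eb251640 was deposited at 17.9, 6.35 and 40.4 FPKM in zmcryq in blue light and 10.1, 23.1 and 12.9 in zmcryq in the dark, against 16.6, 0.88 and 0.49 in B73 in blue light and 13.2, 9.21 and 0 in B73 in the dark. Its smaller log2 difference was 0.90 without B73 dark replicate 3 and 1.37 without B73 blue replicate 3, so its membership rests on these libraries. Zm00001eb255770 was deposited at 4.60, 9.83 and 14.9 FPKM in zmcryq in blue light and 5.82, 20.4 and 7.05 in zmcryq in the dark, against 0, 0 and 6.40 in B73 in blue light and 0, 0 and 1.27 in B73 in the dark, with replicate 3 the only B73 library above 0 in either light.

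Genes of low and of higher level lay on both sides of the threshold. Just inside it, with smaller differences of 2.00, 2.01 and 2.01, were Zm00001eb114160, Zm00001eb269890 and Zm00001eb068120. Their mean scaled levels in zmcryq were 4.32, 3.11 and 31.7. Just outside, with 1.99, 1.99 and 1.98, were Zm00001eb441350, Zm00001eb370290 and Zm00001eb391400, all light-steady. These 3 had mean scaled levels in zmcryq of 309.8, 40.1 and 7.1. Zm00001eb370290 was deposited at 47, 37.2 and 54.9 FPKM in zmcryq in blue light and 22.6, 46.4 and 28.9 in zmcryq in the dark, against 8.25, 3.58 and 8.21 in B73 in blue light and 9.41, 12.1 and 10.4 in B73 in the dark, with no overlap. Zm00001eb441350 differed from it in spread: in B73 it was deposited at 120, 209 and 5.07 FPKM in blue light and 189, 230 and 6.13 in the dark, so that replicate 3 was far below the other replicates in both lights.

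The rule bounded the light response, and its direction within that bound depended on scaling. The log2 change in zmcryq, blue minus dark, ran from -0.75 to 0.70 with a median of -0.25. It was below 0 in 124 of 177 members (70.1%) with median-ratio scaling, in 109 with upper-quartile scaling and in 7 without scaling, where the direction flipped and the median was 0.42. The median of all tested genes in this contrast was then 0.56, against 0.01 with median-ratio scaling and 0.11 with upper-quartile scaling. The members' median lay below that of all tested genes by each of the 3 scalings. Over the 12132 light-steady genes the change in zmcryq was below 0 in 47.2%, with a median of 0.02. The 168 genes of the reversed rule are higher in B73, and there their change was below 0 in 99, with a median of -0.08, with median-ratio scaling. For the members, the change in B73 ran from -0.71 to 0.54 with a median of 0. It was exactly 0 in the 65 members listed at 0 there, below 0 in 64 and above 0 in 48. For members near 0 in B73 the condition on light in B73 could hardly fail: of the 117 genes that met the condition on genotype but were not light-steady, 86 failed in zmcryq only, 8 in B73 only and 23 in both. Of those that failed in zmcryq, 84 were lower after blue light and 25 higher on the scaled values. The genotype difference was larger in the dark than after blue light in 114 members and smaller in 63 with median-ratio scaling, larger in 99 and smaller in 78 with upper-quartile scaling, and larger in 10 and smaller in 167 without scaling.

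**Figure D4:**
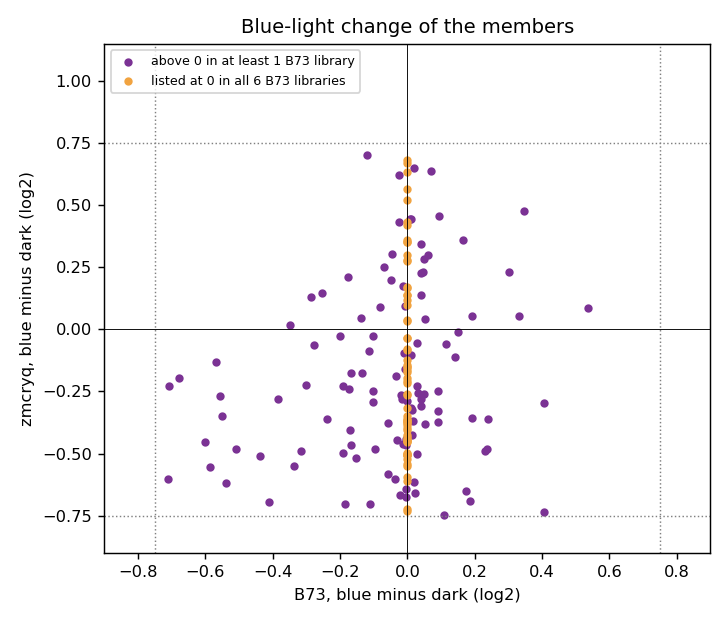
Blue-light change of the 177 members, blue minus dark in log2(scaled FPKM + 1), in zmcryq (vertical axis) and B73 (horizontal axis), 1 point per gene, with the limits of the rule at 0.75 as dotted lines. The 65 members listed at 0 in all B73 libraries (orange) form a column at 0, and in zmcryq 124 of the 177 points lie below 0, against 7 without scaling, where the direction flipped.

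In the test of the difference of blue responses, zmcryq minus B73, limma called 28 members at an adjusted p under 0.05, of which 22 were lower and 6 higher in zmcryq. Over all tested genes 25.8% were called, 15% lower and 10.8% higher. The rule limited this contrast too, so the members' count is a description. Some of the 28 were listed at 0 in all 6 B73 libraries, such as Zm00001eb142680 and Zm00001eb317340, named after their values were seen. In these the change in B73 was exactly 0, so the call rested on the change in zmcryq alone. None of the 13 named members was among the 28. The called members included Zm00001eb076480, named after its values were seen, at 51.1 scaled FPKM over the zmcryq libraries and 0.54 over the B73 libraries, with a log2 difference of 4.73 in blue light and 5.37 in the dark. Called in the other direction was Zm00001eb006180, with 11.1 scaled FPKM over the zmcryq libraries and 0.83 over the B73 libraries and differences of 3.09 in blue light and 2.27 in the dark. The split of all calls depended on scaling. It was 41.9% higher with median-ratio scaling, 54.8% with upper-quartile scaling and 59.5% without scaling.

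The order of gene IDs was not used by the rule. The table lists IDs in steps of 10 without a gap, and the members were placed among the tested genes in this order. The median distance between neighbouring members was 80.5 tested genes, the smallest 1 and the largest 556. In consecutive windows of 100 tested genes, 103 of 215 windows held no member, 65 held 1, and the fullest, 3 windows, held 4. No window reached 10, the number set for a dense window, nor did any with windows of 50 or 200 genes and limits of 5 and 20. For the 168 genes of the reversed rule, 131 windows were empty and the fullest held 6. With the order cut into 10 equal parts, each held 8 to 26 members and 7 to 26 genes of the reversed rule. Part 1 held the fewest members, 8, beside 26 genes of the reversed rule, and part 4 the most, 26, beside 17.

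**Figure D5:**
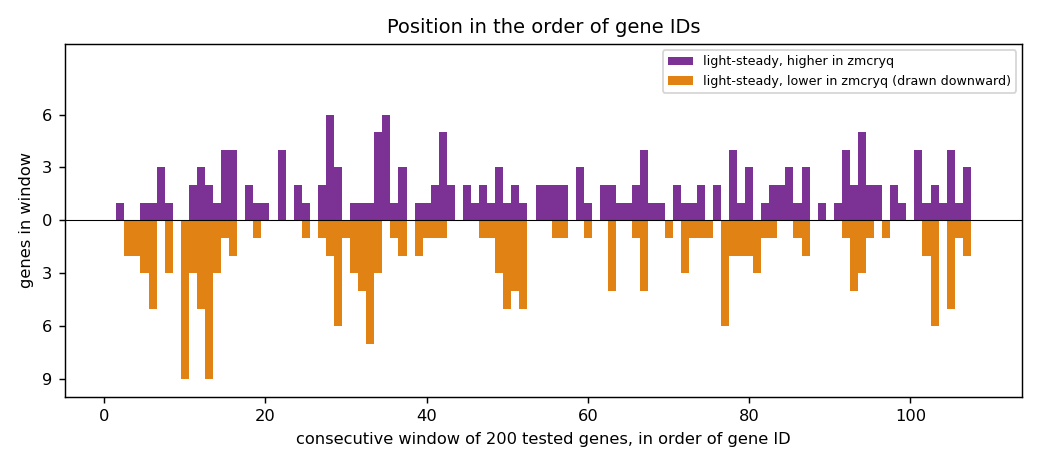
Number of members (purple, upward) and of light-steady genes lower in zmcryq (orange, drawn downward) in consecutive windows of 200 tested genes in order of gene ID; the last window is shorter. Members lie along the whole order with at most 6 in a window, and the reversed rule has at most 9.

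A run of members, defined as 3 or more with neighbours at most 5 tested genes apart, occurred once and held 4 members. The reversed rule gave 3 runs with 11 genes in all, the largest of 4. The run of members consisted of Zm00001eb166200, Zm00001eb166320, Zm00001eb166330 and Zm00001eb166340, the last 3 with consecutive IDs. Zm00001eb166340 had the highest level, with 16.4, 18.9 and 19.5 FPKM in zmcryq in blue light and 12.7, 23 and 19.4 in zmcryq in the dark, against 0.13, 0.08 and 0.08 in B73 in blue light and 0.1, 0.06 and 0.09 in B73 in the dark. Zm00001eb166320 stood at 2.91, 4.58 and 4.8 FPKM in zmcryq in blue light and 2.43, 4.28 and 3.24 in zmcryq in the dark, against 0.02 or less in every B73 library. In both genes all zmcryq libraries were above all B73 libraries.

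Zm00001eb166330 was more variable, with 3.59, 3.04 and 11.3 FPKM in zmcryq in blue light and 1.56, 5.73 and 7.59 in zmcryq in the dark, against 0, 0 and 0.45 in B73 in blue light and 0, 0.08 and 0.17 in B73 in the dark. Zm00001eb166200 was expressed in B73 too, with 8.65, 10.8 and 16.1 FPKM in zmcryq in blue light and 4.31, 7.13 and 9.47 in zmcryq in the dark, against 2.97, 1.10 and 0.55 in B73 in blue light and 0.92, 1.45 and 0.44 in B73 in the dark. The tested gene after the run, Zm00001eb166350, had log2 differences of 1.89 in blue light and 3.64 in the dark and was not light-steady in zmcryq, where it changed by -1.81. The 3 tested genes between Zm00001eb166200 and Zm00001eb166320 had differences of 0.02 to 1.41 in blue light and -0.17 to 0.91 in the dark, so the run was not unbroken. Without zmcryq blue replicate 2 the rule gave no run. Whether fragments were shared between neighbouring or overlapping genes is not given in the sources used here.

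Places close to a member held members more often than tested genes at large, and those close to a gene of the reversed rule held its genes more often too. Of the 354 places next to a member among tested genes, 12 (3.39%) held another member, against 0.824% of tested genes that are members. For the reversed rule 22 of 336 places (6.55%) held another of its genes, against 0.782%. Within 5 places the shares were 1.69% for members (30 of 1770 places) and 2.86% for the reversed rule (48 of 1680). Each pair was counted from both sides in these figures, and the run of members described above supplied some of the places. In all, 11 members had a member next to them (6.21%), and 4 pairs had consecutive IDs. In the pair Zm00001eb112110 and Zm00001eb112120, chosen after the values were seen, the first gene stood at 33, 27.2 and 49.2 FPKM in zmcryq in blue light and 23.8, 28.9 and 36.7 in zmcryq in the dark, and at 0 in all B73 libraries. The second stood at 13.7, 11.6 and 20.1 FPKM in zmcryq in blue light and 10.4, 18.9 and 15.8 in zmcryq in the dark, and at 0 in all B73 libraries but dark replicate 2, with 0.05. Zm00001eb142680 and Zm00001eb142700 were of the same kind, with mean scaled levels of 34.7 and 19.3 in zmcryq. The first was listed at 0 in every B73 library and the second in every one but dark replicate 2.

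Tested genes next to members that were not members themselves were higher or lower by at least 1 in larger shares than all tested genes. Over the 341 such genes the median difference was 0.13 in blue light and 0.08 in the dark, against 0.02 and 0.03 over all tested genes. Of them, 10.9% were higher in zmcryq by 1 or more in both lights, against 4.92% of all tested genes, and 8.21% were lower by 1 or more, against 5.84%. Over the 1635 other genes within 5 places of a member, 5.38% were higher and 7.58% lower, and the medians were 0.02 in both lights. These shares are descriptions, since neighbouring genes are not independent.

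Light-steady genes lower in zmcryq by the reversed rule were 0.782% of all tested genes. In 4 of the 354 places next to a member, such a gene formed a pair with the member. These pairs were singled out after their values were seen. Zm00001eb318360, a member, stood at 23.2, 14.7 and 33 FPKM in zmcryq in blue light and 9.81, 20.5 and 15.1 in zmcryq in the dark, against 4.25, 2.26 and 4.76 in B73 in blue light and 4.87, 4.23 and 2.95 in B73 in the dark. The preceding ID, Zm00001eb318350, was listed at 0 in all 6 zmcryq libraries and at 33.7, 13.2 and 32.4 FPKM in B73 in blue light and 29.9, 26.6 and 19.5 in B73 in the dark. The opposite order of the genotypes in these neighbouring IDs was fixed by the rule and its reversal. In neither gene did the values of the genotypes overlap.

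Another such pair was Zm00001eb063810 and Zm00001eb063830. The member, Zm00001eb063810, stood at 55.4, 42.1 and 77.1 FPKM in zmcryq in blue light and 39.1, 84 and 53.4 in zmcryq in the dark, against 11.8, 6.66 and 13.8 in B73 in blue light and 12, 11.5 and 11.9 in B73 in the dark. Zm00001eb063830 stood at 0.21, 0.16 and 0.08 FPKM in zmcryq in blue light and 0.05, 0.02 and 0.05 in zmcryq in the dark, against 18.6, 6.76 and 16.9 in B73 in blue light and 15.8, 11.9 and 19.5 in B73 in the dark. The remaining pairs were Zm00001eb376490 with Zm00001eb376510 and Zm00001eb427320 with Zm00001eb427390, with mean scaled levels of 7.05 and 6.01 in zmcryq for the members, against 0.35 and 0.33 in B73. In all, 17 members had a gene of the opposite direction within 5 tested places. There were 1770 such places, and 0.782% of all tested genes were of the reversed rule, so nothing is read from this count.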

How the data were processed

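Libraries were prepared from total leaf RNA by the TruSeq protocol, as the labels state. The authors deposited 1 table with a value for each of 44303 gene IDs in 12 libraries, read here as FPKM from its decimals and differing totals, and 4 columns of group means, not used further. The submitters' processing notes name Trimmomatic 0.36, HISAT2 2.2.1.0, Cufflinks, TopHat, Bowtie2 and DESeq 1.18.0, without saying what each did. The genome build, the annotation and the use of strand were not given in the sources used here.

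A gene was tested where 3 or more libraries reached 1 FPKM. Scaling factors were median ratios over 19555 genes above 0 in all libraries, and a pseudocount of 1 was added before log2. Contrasts were fitted over all tested genes with limma 3.58.1 in R 4.3.3 (1 mean per group, trended and robust moderation, Benjamini-Hochberg adjustment, 2-sided), after a check on simulated data. The rule for named genes took the 4 highest in zmcryq, the 3 with the largest smaller difference, the 3 highest in B73, 3 on each side of the threshold and the members of the longest runs. Members, lists and rules were chosen with earlier results of these data known. Alternatives were other scalings, pseudocounts and filters, a replicate block, and each library left out.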

Additional observations from a re-analysis of the deposited data

Results flagged for a closer look

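The blue response differed between the genotypes by its own test (limma, adjusted p under 0.05) in 28 of the 177 members, which is what put them here. This is 15.8% of the members, below the 25.8% of all tested genes so called, and the rule had limited both responses beforehand.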

How the results depend on the processing

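The pseudocount decided the size of the set: 177 genes met the rule with 1, 321 with 0.1 and 49 with 5, of which 152 and 39 were members. Members at 0 in all B73 libraries numbered 65, against 111 and 17, and members in runs 4, against 19 and 0. Without scaling 181 genes met the rule, 111 of them members, with 7 in runs; genes called higher in zmcryq were then 2492 in place of 5773 in blue light and 971 in place of 5384 in the dark, and those called for the difference of blue responses 1017 in place of 5543. The cause was not tested. Upper-quartile scaling moved the split of the last calls to 54.8% higher.

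With each library left out in turn, 167 to 182 genes met the rule, with 157 to 172 of the members kept; 57 to 68 were at 0 in B73, 0 to 4 lay in runs, and the calls ranged over 4947 to 6452, 4624 to 5830 and 4235 to 7308. Leaving out both libraries of lowest factor, chosen after seeing the data, gave 181 genes with 163 members. For the 13 named members, repeats also chosen then kept the direction in all 221 cases. The rule required differences of 2 or more, so a reversal was hardly possible and nothing is read from this. Of the cases, 33 moved by more than the replicate SD, and 40, in 10 of the genes, fell below the required difference of 2. The lowest was 0.68, for Zm00001eb269890 with a pseudocount of 5. The members' change in zmcryq was below 0 in 118 to 128 of 177 with a library left out. Same-numbered libraries of the 2 genotypes in the same light did not all deviate together from their group means (correlations of -0.11 to 0.32). The replicate block, with 1 effect per replicate number over all groups, gave 5706, 5327 and 5320 calls, changing no count by over 1.5 times. Pairing of same-numbered blue and dark libraries within a genotype was not tested, though in some genes named above a replicate number stood apart in both lights. Depth limits levels near 0, where fragment counts are unknown.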
